A study of Rattus norvegicus with 743 samples.

Results

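Diclofenac and lumiracoxib are nonsteroidal anti-inflammatory drugs of the arylacetic acid class. Their 6 libraries were taken from 743 rat liver libraries, of which 377 came from treated animals. The members were the libraries whose treatment label names either drug: 3 livers of rats given diclofenac at 50 mg/kg/day and 3 of rats given lumiracoxib at 400 mg/kg/day, each library from 1 animal. All animals were male Sprague Dawley rats dosed for 4 days, and the vehicle was 0.5% methylcellulose in deionized water. Each drug was compared with the 4 vehicle animals of its own study and batch number, so 8 vehicle livers served as controls and no animal entered both comparisons. The lumiracoxib study carries batch number 3 and the diclofenac study batch number 1. Because the doses, the studies and the batch numbers differ, the 2 drugs' values are set side by side and the difference between the drugs was not tested.

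Both drugs share the anilinophenylacetic acid scaffold. Lumiracoxib differs from diclofenac by a methyl group on the phenylacetic acid ring and by a fluorine in place of a chlorine on the aniline ring. Nonsteroidal anti-inflammatory drugs bind the cyclooxygenases Ptgs1 and Ptgs2, which convert arachidonic acid to the precursor of prostaglandins and thromboxanes. Diclofenac inhibits both enzymes, whereas lumiracoxib is selective for Ptgs2. The liver clears both drugs by oxidation and glucuronidation, and it is also the source of the acute phase proteins, which hepatocytes secrete when interleukin-6 and related cytokines activate the transcription factor Stat3.

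The 14 libraries held 15783108 to 23262276 counts. In the lumiracoxib study the treated libraries were deeper than the vehicle libraries (19184699 to 22803800 against 15783108 to 17662885 counts), and their RNA integrity numbers (RIN) were higher, 8.5 to 8.7 against 7.5 to 8.5. In the diclofenac study totals were 21360324 to 22635670 counts in treated and 21368698 to 23262276 in vehicle libraries, and RIN was 8 to 8.4 against 7.5 to 8.5. All 7 libraries of the diclofenac study came from 1 flow cell. Of the lumiracoxib study, vehicle animals 2 to 4 and treated animals 1 and 2 shared a flow cell. Depth and RIN thus moved with treatment in the lumiracoxib study, and the part of depth in its results was not tested. The liver label held in every library by the sum of 18 hepatocyte genes in CPM, counts scaled to a common library total by the trimmed mean of M-values (TMM). In the lumiracoxib study the sum was 94938 to 118920 CPM in treated and 128082 to 170961 CPM in vehicle animals. In the diclofenac study it was 111519 to 123791 CPM in treated and 141629 to 179976 CPM in vehicle animals. Every treated animal thus lay below every vehicle animal of its study.

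Transcripts of striated muscle stood out in diclofenac animals 1 and 3. A list of 30 muscle genes, drawn up after this was seen, summed to 1033 and 2649 CPM there, 0.110% and 0.262% of all counts, and all 30 genes had at least 3 counts in both libraries. The same genes summed to 7.20 CPM in diclofenac animal 2, to 3.65 to 5.80 CPM in the vehicle animals of that study and to 4.03 to 35.4 CPM in the lumiracoxib study. Among 105 other vehicle animals of 27 studies in the series, 1 exceeded 100 CPM, and their median was 5.28 CPM on library totals. Markers of mesothelium, the cell layer that covers the organs of the belly (Msln, Wt1, Upk3b and Lrrn4), summed to 34.2 to 55.9 CPM in the 3 diclofenac animals against 0.668 to 10.0 CPM in their vehicle animals, and to 14.5 to 23.0 against 9.37 to 13.7 CPM in the lumiracoxib study. The part of these transcripts in the results was not tested. The total of diclofenac calls, some lists and Cyp7a1 are therefore also given without animals 1 and 3. Other single genes are not given without these animals, and some of their calls changed, as counted in the last part. The fit without animals 1 and 3 takes all 4 groups together. It leaves 1 diclofenac animal, which is assumed to vary like the other groups.

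**Figure D1:**
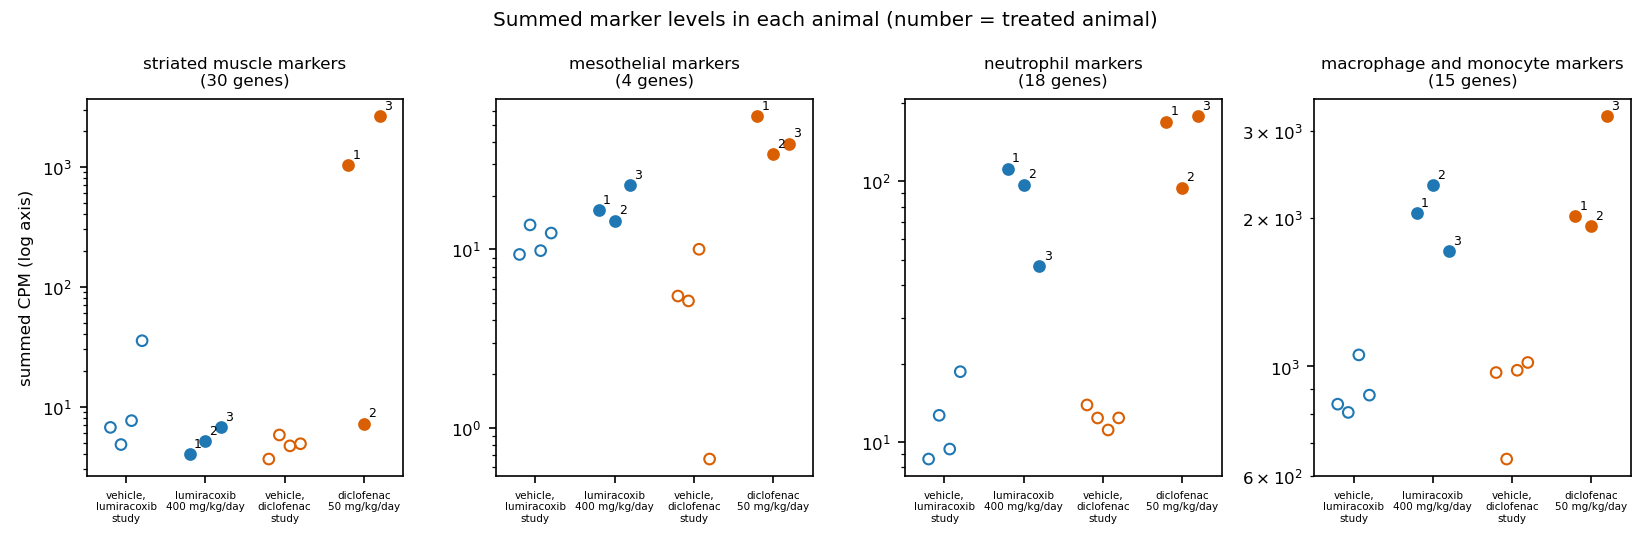
Summed CPM of marker lists (log axis) in each animal of the 4 groups, with treated animals numbered. Neutrophil and macrophage markers were higher in every treated animal than in every vehicle animal of the same study, and striated muscle transcripts reached 1033 and 2649 CPM in diclofenac animals 1 and 3.

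At an adjusted p under 0.05 (edgeR quasi-likelihood test, Benjamini-Hochberg adjustment over all genes tested), lumiracoxib changed 2465 of 12875 genes (19.1%): 1356 were higher (10.5%) and 1109 lower (8.61%). Diclofenac changed 3720 of 13168 genes (28.3%), with 2049 higher (15.6%) and 1671 lower (12.7%). The counts of every gene list below are to be read beside these shares. Every treated animal lay above every vehicle animal of its study for 2267 genes after lumiracoxib (17.6%) and 2610 after diclofenac (19.8%). Every treated animal lay below for 2283 (17.7%) and 2502 (19%). Non-overlap of the groups, given for single genes below, was thus common among all genes. Of the 12720 genes tested in both studies, 882 were higher after both drugs (6.93%), 658 lower after both (5.17%) and 8 moved in opposite directions (0.0629%). The shared genes made up 66.0% of the lumiracoxib increases and 46.1% of the diclofenac increases, and 59.5% and 39.8% of the decreases. Across these genes, which are not independent replicates, the 2 sets of log2 fold changes had a Pearson correlation of 0.785 and a Spearman correlation of 0.744. Of the 2443 genes that lumiracoxib changed and that were also tested in the diclofenac study, 895 missed the threshold after diclofenac, and 829 of these had the same sign. For 306 of the 895 the unadjusted p after diclofenac was above 0.05 and the 95% interval of the fold change lay inside −1 to 1. Conversely, 2018 of 3566 genes changed by diclofenac missed the threshold after lumiracoxib, with the same sign in 1853. In 651 of them the unadjusted p was above 0.05 and the interval lay inside −1 to 1. The number of lumiracoxib calls fell to 1238 to 1521 when vehicle animal 1, 2, 3 or 4 was left out (1521, 1325, 1406 and 1238), and to 149 with RIN as a covariate. The diclofenac calls fell to 2444 without animals 1 and 3, and its lower genes to 1025, 1043 and 1101 without vehicle animal 2, 3 or 4.

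**Figure D2:**
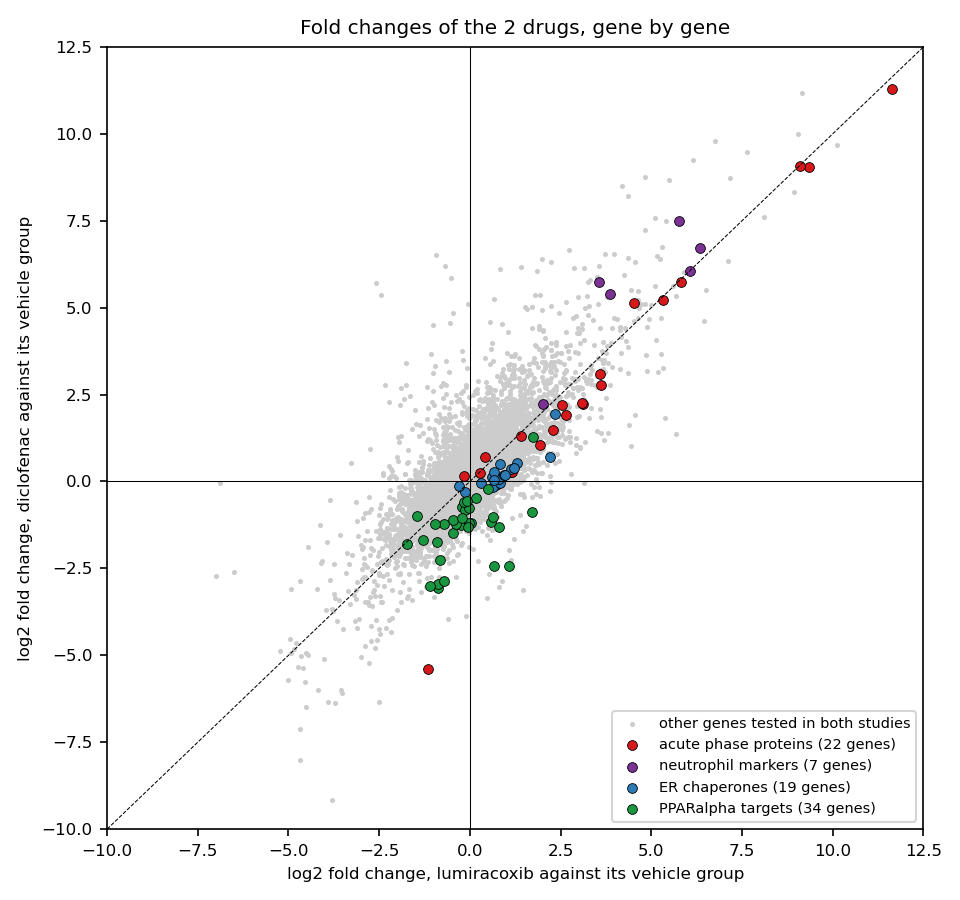
Log2 fold change after lumiracoxib (x axis) against that after diclofenac (y axis), each against its own vehicle group, for the 12720 genes tested in both studies. Grey points are other genes, coloured points are members of the gene lists named in the key. The Pearson correlation was 0.785, and the acute phase genes reach the upper right.

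Acute phase genes, whose products the inflamed liver secretes, rose after both drugs. Of 23 tested acute phase genes, 19 rose after lumiracoxib and 0 fell, with a median log2 fold change of 2.66 against 0.02 over all genes tested. After diclofenac 16 of 22 rose and 1 fell, with a median of 2.06 against 0.02, and 15 genes rose after both. Lcn2, lipocalin 2, which binds iron-loaded bacterial siderophores, had 1.45, 2.79, 2.85 and 3.51 CPM in the vehicle animals and 9225, 11781 and 4319 CPM in lumiracoxib animals 1 to 3 (log2 fold change ± SE 11.63 ± 0.55, adjusted p = 8.77e-05). Lcn2 in the diclofenac study had 1.36, 1.74, 0.0932 and 3.34 CPM in the vehicle animals and 3359, 6591 and 2532 CPM after treatment (11.31 ± 0.98, adjusted p = 3.52e-04). The treated and vehicle animals did not overlap, which the rule for naming the largest changes required. Every treated animal of both studies lay above the range of the 105 other vehicle animals. The same held for 16 of 23 tested genes of the list after lumiracoxib and 13 of 22 after diclofenac. Over all genes tested, this held for 361 of 12875 and 723 of 13168.

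A2m, the broad protease inhibitor alpha-2-macroglobulin and the classical acute phase protein of the rat, varied widely among treated animals. It stood at 3505, 21421 and 11079.9 CPM in lumiracoxib animals 1 to 3, from 37.9, 12.6, 13.1 and 10.6 CPM in the vehicle animals (9.34 ± 0.87, adjusted p = 0.00113). Diclofenac animals 1 to 3 had 4428, 16617 and 13127 CPM from 22.4, 32.8, 6.52 and 24.4 (9.05 ± 0.76, adjusted p = 2.98e-04). In both studies treated animal 1 was the lowest of its group.

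Orm1, the drug-binding plasma protein alpha-1-acid glycoprotein, rose from 367, 350.4, 448 and 396 to 17749, 29588 and 18502 CPM after lumiracoxib (5.81 ± 0.27, adjusted p = 8.77e-05) and from 242, 371, 377 and 191 to 10146, 25109 and 11917 CPM after diclofenac (5.73 ± 0.45, adjusted p = 2.30e-04). The kininogen row Kng1, whose reads may be split with near-identical rat kininogen genes, rose by 5.34 ± 0.33 and 5.21 ± 0.29. The heme scavenger Hpx (3.61 ± 0.21 and 2.79 ± 0.39), the hemoglobin scavenger Hp (2.54 ± 0.22 and 2.21 ± 0.20) and the copper ferroxidase Cp (2.30 ± 0.35 and 1.49 ± 0.34) rose after both drugs. So did Lbp, which presents bacterial lipopolysaccharide to Cd14 (3.59 ± 0.21 and 3.09 ± 0.27), and the metalloprotease inhibitor Timp1 (4.53 ± 0.37 and 5.14 ± 0.14). Here and below, pairs of values in parentheses are log2 fold changes ± SE after lumiracoxib and diclofenac in that order. Mean CPM went from 4582 to 55873 for Hpx, from 194 to 2348 for Lbp and from 1.89 to 43.6 for Timp1 after lumiracoxib, and from 4921 to 33972, 172 to 1461 and 1.78 to 63.2 after diclofenac.

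Some members of the list passed the threshold in 1 study. Complement C3 was called after lumiracoxib (1.15 ± 0.23, adjusted p = 0.0143) and not after diclofenac (0.28 ± 0.28, adjusted p = 0.487). Crp, C-reactive protein, which is abundant in rat plasma without inflammation, had 1661, 2171, 2487 and 2577 CPM in the vehicle animals and 5305, 5418 and 4159 CPM after lumiracoxib (1.16 ± 0.21, adjusted p = 0.0103). Crp in the diclofenac study had 3127, 3978, 3179.6 and 4129 CPM in the vehicle animals and 4123, 5049 and 3784 CPM after treatment (0.26 ± 0.20, adjusted p = 0.360). The hepcidin gene Hamp, whose product blocks iron export from cells, was the decrease in the diclofenac study: it had 1.70, 34.2, 29.2 and 60.4 CPM in the vehicle animals and 1.02, 0.817 and 0.379 CPM in the treated (−5.39 ± 1.14, adjusted p = 0.0112). In the lumiracoxib study Hamp had 15.2, 51.9, 73.7 and 122 CPM in the vehicle animals and 7.24, 50.2 and 30.9 CPM in the treated, and the groups overlapped (−1.16 ± 0.76, adjusted p = 0.303). Without diclofenac animals 1 and 3, 16 of 23 acute phase genes rose, 0 fell and the median was 2.61. With RIN as a covariate 12 of 23 rose after lumiracoxib.

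**Figure D3:**
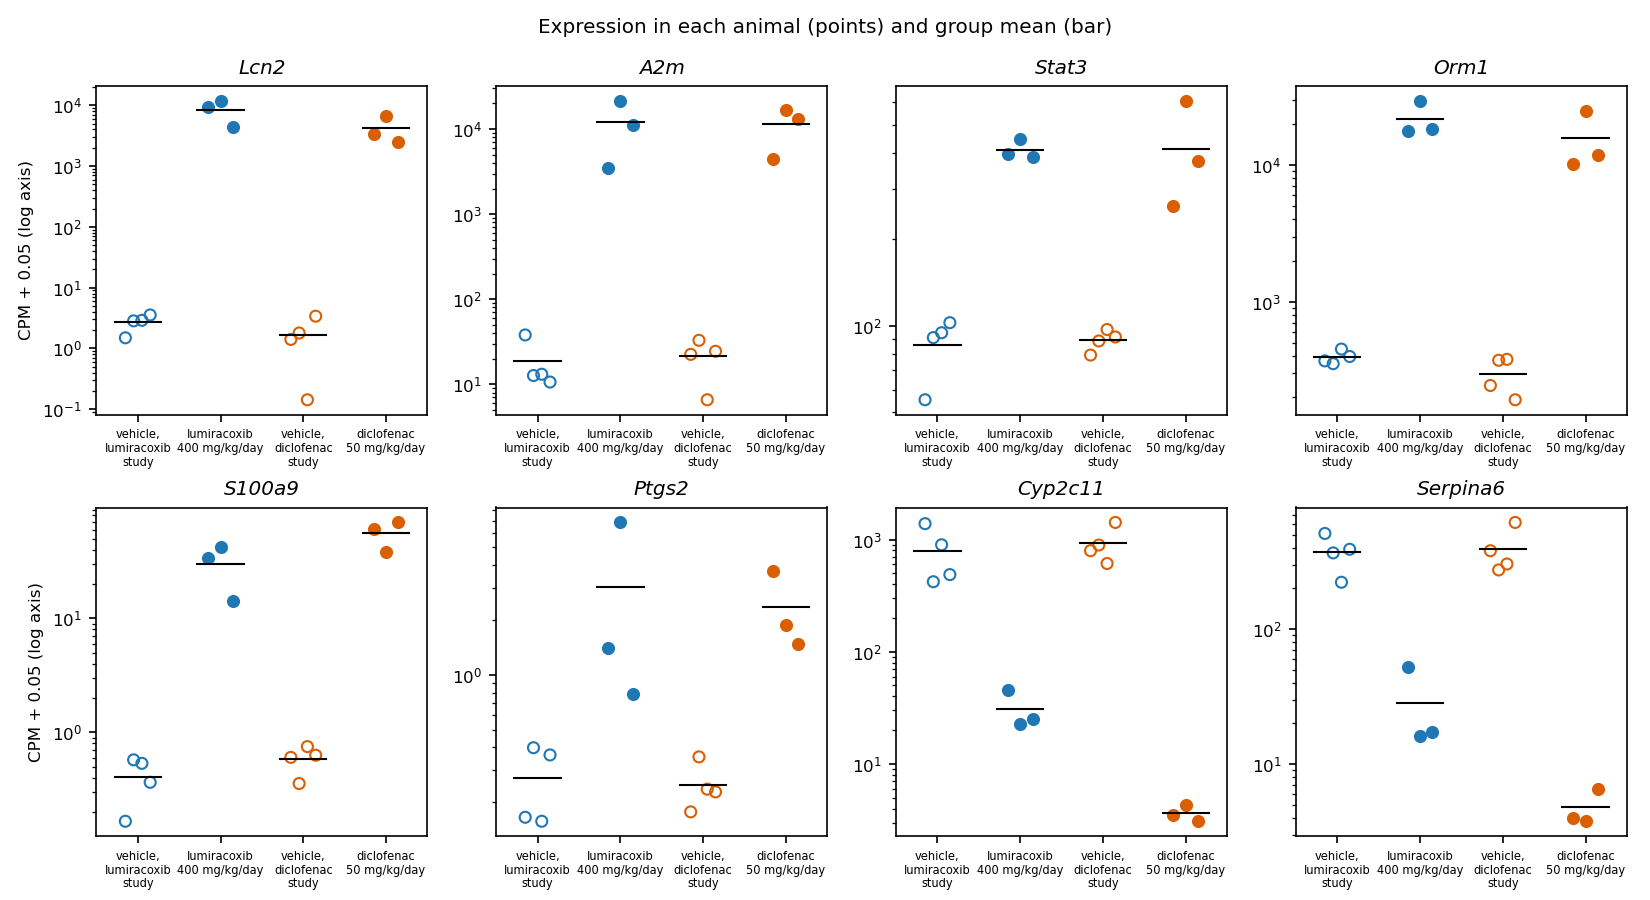
CPM plus 0.05 on a log axis for single genes in every animal of the 4 groups (points) with group means (bars). The increases of Lcn2 and A2m separate the treated from the vehicle animals of both studies, and Cyp2c11 separates them in the opposite direction. These genes were named by a rule that asks for such separation.

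The 3 fibrinogen chains, which assemble into the clotting protein and lie side by side in the genome, rose together. Fga rose by 3.09 ± 0.21 and 2.26 ± 0.46, Fgb by 2.66 ± 0.19 and 1.91 ± 0.42 and Fgg by 3.12 ± 0.21 and 2.22 ± 0.46. Diclofenac animal 1 was the lowest treated animal for all 3, with 7134 CPM of Fga against 33015 and 17671 CPM in animals 2 and 3. Their upstream regions are shown because the 3 genes moved together, and with them those of Lcn2 and Orm1, which had large increases after both drugs. The sequences are the 250 bases before the start site, read 5′ to 3′ on the gene's strand from RefSeq, build GRCr8, which is not the build of the counts. They are Fga (chr2:170671919-170672168, plus strand), Fgb (chr2:170700876-170701125, minus strand), Fgg (chr2:170652833-170653082, plus strand), Lcn2 (chr3:36081781-36082030, minus strand) and Orm1 (chr5:81788259-81788508, plus strand). Capitals mark matches to TTCNNNGAA, the letters of the Stat consensus, and to CTGGGA, a core motif of interleukin-6 response elements, on either strand.
Fga: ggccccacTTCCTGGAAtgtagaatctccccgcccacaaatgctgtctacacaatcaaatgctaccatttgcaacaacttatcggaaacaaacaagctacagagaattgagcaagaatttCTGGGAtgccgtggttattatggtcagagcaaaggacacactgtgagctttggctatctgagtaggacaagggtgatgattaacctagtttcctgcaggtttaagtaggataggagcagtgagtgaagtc
Fgb: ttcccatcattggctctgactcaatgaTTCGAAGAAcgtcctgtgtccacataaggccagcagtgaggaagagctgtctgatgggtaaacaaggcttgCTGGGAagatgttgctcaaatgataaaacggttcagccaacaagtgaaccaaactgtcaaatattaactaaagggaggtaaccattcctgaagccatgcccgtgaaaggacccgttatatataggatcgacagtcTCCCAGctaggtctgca
Fgg: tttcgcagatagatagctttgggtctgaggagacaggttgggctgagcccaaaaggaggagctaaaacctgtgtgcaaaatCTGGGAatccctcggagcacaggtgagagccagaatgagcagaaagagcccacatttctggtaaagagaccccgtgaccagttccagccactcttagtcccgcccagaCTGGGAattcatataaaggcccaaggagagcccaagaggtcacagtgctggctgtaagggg
Lcn2: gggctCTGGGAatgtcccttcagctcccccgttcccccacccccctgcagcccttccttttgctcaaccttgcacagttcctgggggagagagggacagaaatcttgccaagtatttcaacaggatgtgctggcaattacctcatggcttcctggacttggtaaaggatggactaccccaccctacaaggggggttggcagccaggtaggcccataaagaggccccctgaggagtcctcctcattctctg
Orm1: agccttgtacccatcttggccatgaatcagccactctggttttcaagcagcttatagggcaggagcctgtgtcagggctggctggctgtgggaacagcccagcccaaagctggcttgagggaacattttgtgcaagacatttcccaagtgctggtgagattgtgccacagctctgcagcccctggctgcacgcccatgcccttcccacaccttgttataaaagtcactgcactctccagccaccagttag
TTCNNNGAA was found in Fga, with its first base 242 bases before the start site, and in Fgb at 223 bases. CTGGGA was found in Fga at 130 bases, in Fgb at 152 and 17 bases, in Fgg at 169 and 61 bases and in Lcn2 at 245 bases, while neither was found in Orm1. Of 33469 upstream regions of this length in the table, 7.67% hold TTCNNNGAA and 25.7% hold CTGGGA. Of the 15 acute phase genes higher after both drugs, 10 are in the table: TTCNNNGAA was found in 3 and CTGGGA in 6 of them. These are matches of letters, which say nothing of binding.

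Of 12 negative acute phase proteins, whose plasma levels fall in inflammation, 6 were lower and 2 higher after lumiracoxib (median −0.90), and 6 were lower and 3 higher after diclofenac (median −0.66). The thyroxine and retinol carrier Ttr fell by 1.71 and 1.92 on the log2 scale, from means of 4537 to 1388 CPM and of 4488 to 1186 CPM. The high-density lipoprotein enzyme Pon1 (−1.50 ± 0.23 and −2.15 ± 0.28) was also lower after both. Serpina6, which carries corticosterone in plasma, had 509, 366, 222 and 389 CPM in the vehicle animals and 51.9, 16.0 and 17.3 CPM after lumiracoxib (−3.71 ± 0.53, adjusted p = 0.00449). Serpina6 in the diclofenac study had 379.5, 273, 303 and 614 CPM in the vehicle animals and 3.92, 3.73 and 6.54 CPM after treatment (−6.37 ± 0.43, adjusted p = 1.40e-04). Neither pair of groups overlapped. Albumin, Alb, was lower in all 6 treated animals than in their vehicle animals' mean (−0.91 ± 0.21, adjusted p = 0.0228, and −0.76 ± 0.23, adjusted p = 0.0441). The increases were Apoa1, the main protein of high-density lipoprotein (1.26 ± 0.26 and 1.06 ± 0.28), Serpina7, which carries thyroxine (1.79 ± 0.41 and 2.19 ± 0.35), and after diclofenac Fetub (1.11 ± 0.28). All of these lumiracoxib calls ended with RIN as a covariate, where edgeR called 0 of 12 (2 higher and 7 lower at an unadjusted p under 0.05), while DESeq2 without the covariate called 2 higher and 7 lower. Some refits without 1 animal lost calls after lumiracoxib for Alb (4 of 7, adjusted p up to 0.0605) and Serpina7 (1 of 7, adjusted p up to 0.0562) and after diclofenac for Alb (7 of 7, adjusted p up to 0.113), Apoa1 (3 of 7, adjusted p up to 0.0651) and Fetub (4 of 7, adjusted p up to 0.0680).

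Genes of interleukin-6, interleukin-1 and Stat3 signalling also rose: 16 of 26 after lumiracoxib (median 1.64) and 18 of 28 after diclofenac (median 1.40), 15 of them after both and 0 lower. Stat3 itself had 55.2, 90.9, 94.5 and 102 CPM in the vehicle animals and 395, 448 and 386 CPM after lumiracoxib (2.26 ± 0.23, adjusted p = 0.00130). Stat3 in the diclofenac study had 79.0, 88.5, 97.0 and 91.4 CPM in the vehicle animals and 261, 605 and 373 CPM after treatment (2.21 ± 0.27, adjusted p = 0.00112). The receptor subunit for oncostatin M, Osmr, rose by 4.13 ± 0.36 and 4.44 ± 0.31, and Il1b, interleukin-1 beta, by 4.15 ± 0.31 and 4.17 ± 0.16. The natural antagonist of interleukin-1, Il1rn, went from 21.4 to 772 CPM after lumiracoxib and from 23.6 to 209 CPM after diclofenac. The feedback inhibitors Socs3 (2.70 ± 0.73 and 2.49 ± 0.42) and Tnfaip3 (3.75 ± 0.49 and 3.71 ± 0.15) rose as well. The interleukin-6 receptor chains missed the threshold: Il6r had 0.01 ± 0.24 and 0.03 ± 0.12, and Il6st 0.34 ± 0.18 and 0.27 ± 0.19. Il6 itself was too low to be tested, at 0.163, 0.844 and 0.138 CPM in lumiracoxib animals 1 to 3 and 0.298, 0.613 and 0.521 CPM in diclofenac animals 1 to 3, with at most 0.0523 CPM in a vehicle animal. With RIN as a covariate, 2 of the 26 genes rose after lumiracoxib. Calls were lost in some refits without 1 animal after lumiracoxib for Socs3 (6 of 7, adjusted p up to 0.119).

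Chemokines, which recruit leukocytes, rose in 8 and fell in 1 of 18 tested genes after lumiracoxib, and rose in 12 and fell in 4 of 20 after diclofenac. Over all genes 10.5% rose and 8.61% fell after lumiracoxib, and 15.6% and 12.7% after diclofenac. The neutrophil attractant Cxcl1 had 0.868, 1.57, 3.87 and 3.51 CPM in the vehicle animals and 155, 41.6 and 13.1 CPM after lumiracoxib (4.82 ± 0.87, adjusted p = 0.0100). Cxcl1 in the diclofenac study had 2.59, 1.74, 2.61 and 0.802 CPM in the vehicle animals and 23.8, 109.9 and 69.0 CPM after treatment (5.12 ± 0.58, adjusted p = 9.27e-04). Cxcl3, of the same family, had no count in any vehicle animal and 2.61, 7.15 and 0.965 CPM in lumiracoxib animals 1 to 3, at least 86.0-fold higher than 3 counts over the vehicle group. In diclofenac animals 1 to 3 it had 11.0, 4.14 and 2.27 CPM, at least 175-fold higher. Cxcl2 was tested in the diclofenac study, where the vehicle group held 1 count and the treated animals 34.0, 1.63 and 6.11 CPM (9.71 ± 1.51, adjusted p = 0.00314). In the lumiracoxib study Cxcl2 had 0.163, 8.95 and 0.322 CPM, so animal 2 was the only high animal. The treated animals alone could bring Cxcl3, and in the diclofenac study Cxcl2, past the filter on low counts. The counts of higher chemokines can thus include genes tested for that reason. The monocyte attractant Ccl2 rose by 4.62 ± 0.63 and 5.21 ± 0.37. Decreases were Cxcl11, induced by interferons (−2.31 ± 0.54 and −2.38 ± 0.57), and after diclofenac Cxcl12, which retains hematopoietic cells in their niches (mean 308 to 69.8 CPM, −2.14 ± 0.49, adjusted p = 0.0148). With RIN as a covariate edgeR called 0 of 18 chemokines after lumiracoxib, with 9 higher and 1 lower at an unadjusted p under 0.05, whereas DESeq2 without the covariate called 9 higher and 1 lower. The lumiracoxib count of lower genes was 0 without any of vehicle animals 1 to 4 or treated animal 3, and 3 without treated animal 1. With 1 animal left out at a time, calls were lost in some refits after lumiracoxib for Cxcl11 (5 of 7, adjusted p up to 0.0652) and after diclofenac for Cxcl11 (1 of 7, adjusted p up to 0.0545).

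Neutrophil markers were higher after both drugs, and in bulk tissue more cells of a type and more RNA per cell cannot be told apart. The 18 neutrophil markers summed to 8.62 to 18.6 CPM in the lumiracoxib study's vehicle animals and to 112, 97.1 and 47.3 CPM in treated animals 1 to 3. In the diclofenac study the sum was 11.1 to 13.9 CPM in vehicle animals and 169.5, 94.5 and 178 CPM in treated animals. On library totals, the 105 other vehicle animals had 3.84 to 25.5 CPM. After lumiracoxib 9 of the 18 markers and after diclofenac 7 passed the filter on low counts, which the treated animals alone could bring about, and 8 and 6 of these were called higher. Under the covariate RIN 3 of the 9 were called after lumiracoxib and 6 of the 7 after diclofenac. The markers Cxcr1 and Ltf had no count in any of the 14 libraries. S100a9, a calcium-binding protein of neutrophil cytoplasm, had 0.116, 0.523, 0.484 and 0.314 CPM in the vehicle animals and 33.8, 42.1 and 14.2 CPM after lumiracoxib (6.36 ± 0.51, adjusted p = 6.79e-04). S100a9 in the diclofenac study had 0.552, 0.305, 0.699 and 0.579 CPM in the vehicle animals and 61.0, 38.5 and 69.4 CPM after treatment (6.71 ± 0.30, adjusted p = 2.37e-05).

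Of 15 macrophage and monocyte markers, 12 rose after lumiracoxib and 13 after diclofenac, with medians of 1.32 and 1.36. The scavenger receptor Marco (3.22 ± 0.32 and 2.82 ± 0.39), the growth factor receptor Csf1r (1.64 ± 0.19 and 1.79 ± 0.26) and the hemoglobin receptor Cd163 (1.81 ± 0.26 and 1.94 ± 0.26) rose after both. Lysozyme Lyz2 had 459, 115 and 736 CPM in diclofenac animals 1 to 3, from a vehicle mean of 19.5, and 71.4, 112 and 71.8 CPM after lumiracoxib, from 22.9. Diclofenac animals 1 and 3, the animals with muscle transcripts, had the higher Lyz2 values. Clec4f, a marker of resident Kupffer cells, had 61.9, 40.2 and 153 CPM in diclofenac animals 1 to 3 against 226, 112, 192 and 211 (−1.12 ± 0.46, adjusted p = 0.105) and did not pass after lumiracoxib (−0.27 ± 0.29, adjusted p = 0.516). The number of markers called after lumiracoxib was 7 without vehicle animal 1, 2 or 4. With RIN as a covariate edgeR called 0, with 7 higher at an unadjusted p under 0.05, while DESeq2 without it called 13. Without diclofenac animals 1 and 3, diclofenac had 9 markers higher and 1 lower.

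Of the other cell types, 7 of 13 endothelial markers rose after lumiracoxib and 5 of 13 after diclofenac, among them the leukocyte adhesion molecule Icam1 (1.93 ± 0.40 and 1.25 ± 0.19) and von Willebrand factor, Vwf (1.22 ± 0.27 and 2.99 ± 0.34). Among all genes 10.5% rose and 8.61% fell after lumiracoxib, and 15.6% rose and 12.7% fell after diclofenac. The endothelial count after diclofenac was 3 without vehicle animal 2, vehicle animal 3 or treated animal 3, and 8 without treated animal 1. Of 14 stellate cell and fibroblast markers, 5 rose and 1 fell after lumiracoxib, and 9 rose after diclofenac. Lox, which cross-links collagen, rose from 3.53, 5.17, 5.59 and 5.60 to 12.5, 31.2 and 34.9 CPM after lumiracoxib (2.40 ± 0.35, adjusted p = 0.00467) and from 3.95, 7.19, 9.32 and 4.72 to 86.4, 74.4 and 82.4 CPM after diclofenac (3.69 ± 0.28, adjusted p = 2.20e-04). Des, desmin, which muscle also expresses, had 227, 32.1 and 339 CPM in diclofenac animals 1 to 3 and 7.68, 24.5 and 7.03 CPM in lumiracoxib animals, from means of 2.52 and 2.77. The collagen gene Col1a1 was called after diclofenac (2.70 ± 0.53, adjusted p = 0.00826) and not after lumiracoxib (−0.12 ± 0.34, adjusted p = 0.823). Higher stellate markers after lumiracoxib numbered 3 without vehicle animal 2. After RIN was added as a covariate, 1 endothelial and 1 stellate marker were higher after lumiracoxib, and 5 and 8 after diclofenac. Lymphocyte markers showed 1 of 7 higher and 0 lower after lumiracoxib, and 1 of 8 higher and 2 lower after diclofenac, where the lower count was 4 without treated animal 2 and 1 without any other animal. Of the erythroid markers edgeR called 0 of 8 after lumiracoxib (4 higher at an unadjusted p under 0.05, 4 called by DESeq2, and 3 by edgeR without treated animal 1), and 1 of 7 higher after diclofenac, with 0 to 2 when 1 animal was left out and 3 by DESeq2. Of the cholangiocyte markers, 0 of 7 were higher and 2 lower after lumiracoxib, and 3 of 7 higher and 0 lower after diclofenac. Some refits without 1 animal lost calls after lumiracoxib for Des (3 of 7, adjusted p up to 0.0708).

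The eicosanoid pathway, whose list holds the drugs' targets, other prostanoid genes and genes of lipoxygenase and P450 routes, had genes called in both directions. Of its genes, 7 rose and 6 fell of 29 tested after lumiracoxib, and 12 rose and 5 fell of 31 after diclofenac, with 7 higher and 3 lower after both. Over all genes tested, 10.5% rose and 8.61% fell after lumiracoxib, and 15.6% and 12.7% after diclofenac. The 5 lower genes after diclofenac were near that share. DESeq2 called 8 lower after diclofenac. The summed level of the list was lower in every treated animal than in every vehicle animal of its study. It was 1028 to 1209 CPM after lumiracoxib against 2139 to 2225 CPM, and 958 to 1378 CPM after diclofenac against 1812 to 2103 CPM. The inducible cyclooxygenase gene Ptgs2 had 0.116, 0.349, 0.108 and 0.314 CPM in the vehicle animals and 1.36, 6.81 and 0.736 CPM after lumiracoxib (3.69 ± 0.86, adjusted p = 0.0245). Ptgs2 in the diclofenac study had 0.127, 0.305, 0.186 and 0.178 CPM in the vehicle animals and 3.66, 1.84 and 1.42 CPM after treatment (3.50 ± 0.46, adjusted p = 0.00162). The groups did not overlap in either study, and lumiracoxib animal 2 was the highest. Non-overlap with the treated animals higher held for 17.6% of all genes after lumiracoxib and 19.8% after diclofenac. The constitutive Ptgs1 had 23.2, 20.9, 28.9 and 25.0 CPM in the vehicle animals and 43.6, 19.8 and 30.3 CPM after lumiracoxib (0.35 ± 0.25, adjusted p = 0.343). Ptgs1 in the diclofenac study had 22.4, 16.8, 26.3 and 25.3 CPM in the vehicle animals and 30.0, 22.3 and 55.8 CPM after treatment (0.67 ± 0.31, adjusted p = 0.139). The groups overlapped in both studies and neither passed. Ptges, the inducible prostaglandin E synthase, had 6.51, 2.55 and 4.40 CPM in diclofenac animals 1 to 3, where the vehicle group held 2 counts (7.34 ± 0.63, adjusted p = 3.30e-04). The treated animals alone could bring Ptges past the filter on low counts there. In the lumiracoxib study it had no vehicle count and 0.109, 1.58 and 0.506 CPM after treatment, at least 17.6-fold higher, and was too low to be tested. Calls were lost in some refits without 1 animal after lumiracoxib for Ptgs2 (4 of 7, adjusted p up to 0.0683).

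Receptors for prostanoids changed in both directions. The prostaglandin E receptor Ptger3 fell from 31.7, 15.1, 20.7 and 24.7 to 3.70, 1.86 and 2.48 CPM after lumiracoxib (−3.10 ± 0.33, adjusted p = 0.00159) and from 32.7, 34.6, 18.0 and 31.7 to 1.32, 0.919 and 2.42 CPM after diclofenac (−4.23 ± 0.38, adjusted p = 3.91e-04). The receptors Ptger2 (2.64 ± 0.45 and 3.19 ± 0.33) and Ptger4 (2.07 ± 0.54 and 3.44 ± 0.50), which signal through cyclic AMP, and the prostacyclin receptor Ptgir (2.39 ± 0.42 and 2.64 ± 0.22) rose. Upstream of the cyclooxygenases, the secreted phospholipase Pla2g2a rose from 1.16, 2.56, 0.538 and 2.88 to 36.9, 15.9 and 31.0 CPM after lumiracoxib (3.96 ± 0.52, adjusted p = 0.00357) and from 0.722, 0.610, 0.839 and 0.891 to 40.6, 79.7 and 94.8 CPM after diclofenac (6.54 ± 0.34, adjusted p = 3.89e-05). Among the lipoxygenases, Alox15 rose after both (4.32 ± 0.72 and 4.04 ± 0.49). Alox5ap, which presents arachidonic acid to the leukotriene-forming lipoxygenase, was called after diclofenac (3.03 ± 0.50, adjusted p = 0.00407) and not after lumiracoxib (0.94 ± 0.39, adjusted p = 0.123). The epoxide hydrolase Ephx2 (−1.83 ± 0.51 and −2.38 ± 0.40) and the omega-hydroxylase Cyp4f1 (−2.32 ± 0.32 and −1.83 ± 0.18), which break eicosanoids down, were lower after both. The leukotriene hydrolase Lta4h rose after both (0.81 ± 0.15 and 0.79 ± 0.15). Lower after lumiracoxib and not called after diclofenac were the prostaglandin reductase Ptgr1 (−2.47 ± 0.32 and −1.52 ± 0.51), the prostaglandin transporter Slco2a1 (−1.41 ± 0.36 and −1.19 ± 0.47) and the hydroxylase Cyp4f4 (−1.36 ± 0.27 and −0.43 ± 0.22). Called after diclofenac and not after lumiracoxib were the thromboxane synthase Tbxas1 (0.63 ± 0.29 and 2.42 ± 0.33), the receptors Ptger1 (0.43 ± 0.24 and 1.15 ± 0.25) and Ptgfr (−1.46 ± 0.48 and −1.81 ± 0.32), and the epoxygenase Cyp2j4 (−1.03 ± 0.44 and −1.25 ± 0.39). Alox5, the leukotriene-forming lipoxygenase itself, was tested in the diclofenac study and rose (3.16 ± 0.43, adjusted p = 0.00182). With RIN as a covariate edgeR called 0 genes of the list higher and 1 lower after lumiracoxib (6 and 7 at an unadjusted p under 0.05), with a median of −0.05 against −0.01 without the covariate. With 1 animal left out at a time, calls were lost in some refits after lumiracoxib for Ephx2 (5 of 7, adjusted p up to 0.0950), Ptger4 (4 of 5, adjusted p up to 0.0830) and Slco2a1 (5 of 7, adjusted p up to 0.0820) and after diclofenac for Cyp2j4 (6 of 7, adjusted p up to 0.132).

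Genes that handle diclofenac and related acids fell or missed the threshold by edgeR: 8 of 25 tested were lower and 0 higher after lumiracoxib, and 11 of 26 lower and 0 higher after diclofenac, with 6 lower after both. Cyp2c11, the main male-specific P450 of rat liver, fell from 1386, 421, 898 and 487 to 45.4, 22.5 and 25.3 CPM after lumiracoxib (−4.68 ± 0.55, adjusted p = 0.00237) and from 796, 894, 612 and 1421 to 3.45, 4.29 and 3.03 CPM after diclofenac (−8.02 ± 0.42, adjusted p = 4.13e-05). Abcc2, which exports drug glucuronides into bile, was lower after both (−1.65 ± 0.35 and −1.48 ± 0.39), and so were Cyp2c13 (−1.82 ± 0.45 and −1.95 ± 0.34), Cyp2c23 (−2.54 ± 0.37 and −1.63 ± 0.41) and the uptake transporter Slco1b2 (−1.80 ± 0.44 and −1.67 ± 0.32). The uptake transporter Slco1a4 had 369, 285, 386 and 284 CPM in the vehicle animals and 42.4, 38.0 and 32.4 CPM after lumiracoxib (−3.14 ± 0.21, adjusted p = 2.59e-04). Slco1a4 in the diclofenac study had 402, 443, 283 and 429.9 CPM in the vehicle animals and 418, 94.7 and 259.6 CPM after treatment (−0.60 ± 0.44, adjusted p = 0.342), where the groups overlapped. Reads may be shared among the near-identical Cyp2c genes, so their separate values are less certain. After lumiracoxib the count was 5 without vehicle animal 1, 2 or 3, 3 with RIN as a covariate, and 14 lower of 24 by DESeq2. DESeq2 called 2 of these genes higher and 12 lower after diclofenac. Refits that left out 1 animal lost calls after lumiracoxib for Cyp2c13 (4 of 7, adjusted p up to 0.0742) and Slco1b2 (5 of 7, adjusted p up to 0.0697) and after diclofenac for Abcc2 (3 of 7, adjusted p up to 0.0634) and Cyp2c23 (4 of 7, adjusted p up to 0.0543).

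Male-predominant genes, which the pulsed growth hormone of male rats maintains, were lower after both drugs. After lumiracoxib 7 of 10 were lower and after diclofenac 8 of 10, with medians of −1.90 and −2.17, and 6 were lower after both. The sulfotransferase Sult1e1 fell by 1.98 and 2.05 on the log2 scale and the aldo-keto reductase Akr1c12 by 2.01 and 2.29. Mup4, a major urinary protein on 2 rows that may share reads, had 122, 93.1, 188 and 93.3 CPM in the vehicle animals and 10.1, 3.55 and 3.36 CPM after lumiracoxib. Mup4 in the diclofenac study had 156, 159, 217 and 264 CPM in the vehicle animals and 0.213, 18.4 and 0.237 CPM after treatment, both on its higher row (−4.45 ± 0.52 and −4.99 ± 1.40). Diclofenac animal 2 kept more Mup4 than animals 1 and 3. Of 9 female-predominant genes, edgeR called 0 after lumiracoxib (1 higher and 2 lower at an unadjusted p under 0.05, and 1 and 2 called by DESeq2). After diclofenac edgeR called 0 female-predominant genes higher and 1 lower (4 and 1 at an unadjusted p under 0.05, and 3 and 2 called by DESeq2), with a median of 0.73. Male-predominant genes called after lumiracoxib numbered 4 without vehicle animal 2 or 3, and 2 with RIN as a covariate. Leaving out 1 animal at a time ended calls in some refits after lumiracoxib for Sult1e1 (4 of 7, adjusted p up to 0.0750) and after diclofenac for Mup4 (5 of 7, adjusted p up to 0.0656).

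Among nuclear receptor targets, the Ah receptor list had 2 of 7 genes higher after lumiracoxib and 4 of 7 after diclofenac. The P450 gene Cyp1a1 had 0.521, 0.581, 2.15 and 0.628 CPM in the vehicle animals and 3.92, 6.81 and 8.73 CPM after lumiracoxib (2.73 ± 0.53, adjusted p = 0.0125). Cyp1a1 in the diclofenac study had 0.340, 0.0436, 0.0466 and 0.980 CPM in the vehicle animals and 3.49, 63.6 and 41.1 CPM after treatment (6.65 ± 1.13, adjusted p = 0.00463). Its diclofenac values ranged widely, with animal 1 far below animals 2 and 3. Cyp1b1 rose by 4.55 ± 0.87 and 6.32 ± 0.28, while Cyp1a2, the constitutive liver form, missed the threshold (−0.72 ± 0.34, adjusted p = 0.165, and −0.26 ± 0.44, adjusted p = 0.693). Of 13 CAR targets, 1 rose and 1 fell after lumiracoxib and 1 rose and 4 fell after diclofenac. Of 9 PXR targets, 4 fell after lumiracoxib and 3 after diclofenac, and edgeR called 0 higher (0 and 1 at an unadjusted p under 0.05, and 0 and 1 called by DESeq2). Of 29 targets of NRF2, which induces genes against oxidants, 2 rose and 4 fell after lumiracoxib and 4 rose and 11 fell after diclofenac. Over all genes 10.5% rose and 8.61% fell after lumiracoxib, and 15.6% rose and 12.7% fell after diclofenac. DESeq2 called 2 NRF2 targets higher and 11 lower of 28 after lumiracoxib, whereas edgeR with RIN as a covariate called 0 of 29 (3 higher and 2 lower at an unadjusted p under 0.05). The heme oxygenase Hmox1 rose by 2.71 ± 0.56 and 2.78 ± 0.28, whereas Gclm, a subunit of the enzyme that makes the glutathione precursor, fell by 1.91 and 1.70. Lower NRF2 targets after lumiracoxib numbered 1 without vehicle animal 2 or 4, 2 without vehicle animal 1 or treated animal 2 or 3, and 14 without treated animal 1. The CAR counts after lumiracoxib ranged from 0 to 2 higher and from 0 to 4 lower with 1 animal left out. Under the covariate RIN edgeR called 0 Ah receptor targets (3 higher and 1 lower at an unadjusted p under 0.05), 0 CAR targets (2 and 1) and 2 lower PXR targets after lumiracoxib. DESeq2 without it called 2 higher and 1 lower, 1 higher and 3 lower, and 5 lower. Some refits without 1 animal lost calls after lumiracoxib for Gclm (5 of 7, adjusted p up to 0.150).

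Genes of fatty acid oxidation fell after diclofenac. Of 34 PPARalpha targets, most of which handle or oxidise fatty acids in mitochondria and peroxisomes, edgeR called 25 lower and 0 higher after diclofenac (27 and 1 at an unadjusted p under 0.05, and 28 and 1 called by DESeq2), with a median of −1.20. After lumiracoxib 2 were lower and 1 higher, with a median of −0.21. The peroxisomal enzyme Ehhadh had 506, 687, 1218 and 836 CPM in the vehicle animals and 145, 33.1 and 123 CPM after diclofenac (−3.02 ± 0.55, adjusted p = 0.00614). Ehhadh in the lumiracoxib study had 455, 1696, 1117 and 1084 CPM in the vehicle animals and 1060.1, 77.8 and 392 CPM after treatment (−1.09 ± 0.78, adjusted p = 0.339). The fatty acid binding protein Fabp1 (−0.81 ± 0.38 and −2.26 ± 0.33) and the lipid droplet protein Plin2 (0.64 ± 0.38 and −1.03 ± 0.23) were called after diclofenac and not after lumiracoxib. Acadm, the medium-chain dehydrogenase of mitochondria, was lower after both (−0.92 ± 0.25 and −1.75 ± 0.17), as was the acyl-CoA synthetase Acsl1 (−1.73 ± 0.36 and −1.81 ± 0.30). The median log2 ratio of the list to the vehicle mean was −1.04, −1.37 and −1.38 in diclofenac animals 1 to 3 and −0.44, −0.55 and −0.02 in lumiracoxib animals 1 to 3. In lumiracoxib animals 1 to 3, 26, 27 and 18 of the 34 genes lay below the vehicle mean. The summed list was also lower after lumiracoxib, at 10420 to 15279 CPM against 16807 to 24229 CPM in its vehicle animals. After diclofenac the sum was 6068 to 8564 CPM against 17939.5 to 23726 CPM. Without diclofenac animals 1 and 3, 17 of 34 were lower and the median was −1.47. The 2 drugs' values were not tested against each other. The lumiracoxib count of lower genes was 1 without any of vehicle animals 1 to 4 and 4 without treated animal 3, and that of higher genes ranged from 0 to 3. DESeq2 called 6 lower and 3 higher after lumiracoxib, and edgeR with RIN as a covariate 0 (1 lower and 1 higher at an unadjusted p under 0.05). Calls were lost in some refits without 1 animal after lumiracoxib for Acadm (5 of 7, adjusted p up to 0.0948).

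Of the 8 genes called in opposite directions, 5 met the rule for naming. Acot2, a mitochondrial acyl-CoA thioesterase among the PPARalpha targets, had 97.5, 168, 95.3 and 115 CPM in the vehicle animals and 190.3, 366 and 197 CPM after lumiracoxib (1.08 ± 0.30, adjusted p = 0.0403). Acot2 in the diclofenac study had 69.5, 72.1, 74.2 and 106 CPM in the vehicle animals and 13.9, 21.5 and 9.38 CPM after treatment (−2.43 ± 0.30, adjusted p = 0.00122). Reads may be shared with its near-identical neighbours. Heatr4 had 6.36, 9.77, 6.35 and 7.38 CPM in the vehicle animals and 14.4, 20.1 and 14.6 CPM after lumiracoxib (1.13 ± 0.21, adjusted p = 0.00991). Heatr4 in the diclofenac study had 6.88, 5.62, 6.06 and 9.49 CPM in the vehicle animals and 1.28, 1.94 and 1.18 CPM after treatment (−2.26 ± 0.28, adjusted p = 0.00123). The groups did not overlap in either study for these 2 genes. The morphogen Bmp2 (0.67 ± 0.14 and −0.74 ± 0.21), the gelatinase Mmp2 (−0.64 ± 0.16 and 1.34 ± 0.16) and Arap2 (0.59 ± 0.15 and −0.54 ± 0.17) changed less. With 1 animal left out at a time, calls were lost in some refits after lumiracoxib for Acot2 (4 of 7, adjusted p up to 0.0972), Bmp2 (1 of 7, adjusted p up to 0.0529), Mmp2 (5 of 7, adjusted p up to 0.108) and Arap2 (6 of 7, adjusted p up to 0.0839) and after diclofenac for Bmp2 (5 of 7, adjusted p up to 0.0849) and Arap2 (6 of 7, adjusted p up to 0.118).

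Chaperones of the endoplasmic reticulum, which fold secreted proteins, rose after lumiracoxib and differed among the diclofenac animals. After lumiracoxib 12 of 19 chaperone genes rose, with a median of 0.84, and list medians of 1.04, 0.73 and 0.65 in animals 1 to 3. After diclofenac 1 of 19 rose, with a median of 0.12, and the list medians were −0.45, 0.78 and −0.33: animal 2 was high and animals 1 and 3, those with muscle transcripts, were below their vehicle mean. Hspa5, the main chaperone of the reticulum, had 506, 651, 397 and 569 CPM in the vehicle animals and 1251, 883 and 733 CPM after lumiracoxib (0.85 ± 0.25, adjusted p = 0.0469). Hspa5 in the diclofenac study had 485, 703, 679 and 753 CPM in the vehicle animals and 382, 1291 and 427 CPM after treatment (0.10 ± 0.43, adjusted p = 0.890). Diclofenac animals 1 and 3 lay below every vehicle animal for Hspa5, and animal 2 lay above every one. Calr, calreticulin (0.96 ± 0.20 and 0.20 ± 0.36), and Manf, a secreted stress protein (1.29 ± 0.24 and 0.53 ± 0.44), were likewise highest in diclofenac animal 2, with 489.9, 1235 and 543 CPM of Calr and 55.6, 193 and 54.7 CPM of Manf in animals 1 to 3. Without diclofenac animals 1 and 3, 7 of 19 chaperones rose and the median was 0.79. The lumiracoxib count was 7 without vehicle animal 1, 2 or 4, 6 without vehicle animal 3, and 1 with RIN as a covariate. After diclofenac 5 chaperones fell when animal 2 was left out, and 3 rose when animal 3 was left out. Refits that left out 1 animal lost calls after lumiracoxib for Hspa5 (6 of 7, adjusted p up to 0.0957).

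Of 25 cholesterol synthesis and uptake genes, 13 rose after lumiracoxib (median 0.82) and 5 after diclofenac (median 1.08). After diclofenac 13 were higher at an unadjusted p under 0.05, and DESeq2 called 13 higher. Squalene epoxidase Sqle, an early enzyme of the sterol branch, had 11.9, 17.0, 18.3 and 20.8 CPM in the vehicle animals and 90.5, 185 and 52.3 CPM after lumiracoxib (2.68 ± 0.41, adjusted p = 0.00542). Sqle in the diclofenac study had 33.1, 15.1, 21.4 and 20.0 CPM in the vehicle animals and 136, 82.9 and 95.3 CPM after treatment (2.23 ± 0.28, adjusted p = 0.00132). The groups did not overlap in either study. Msmo1, a sterol demethylase, had 89.3, 25.4, 34.8 and 35.0 CPM in the vehicle animals and 358, 37.3 and 221 CPM after diclofenac and did not pass (2.15 ± 0.71, adjusted p = 0.0545); animal 2 stayed among the vehicle values. The list medians were 1.77, −0.37 and 0.89 in diclofenac animals 1 to 3 and 1.02, 0.53 and 0.34 in lumiracoxib animals 1 to 3. With diclofenac animals 1 and 3 left out the direction turned, to 1 higher and 4 lower of 25 with a median of −0.38, and with animal 2 left out 16 rose. The lumiracoxib count was 7 without vehicle animal 1 or 4, 6 without vehicle animal 2 or 3, and 0 with RIN as a covariate by edgeR (9 higher and 1 lower at an unadjusted p under 0.05), while DESeq2 without the covariate called 12.

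**Figure D4:**
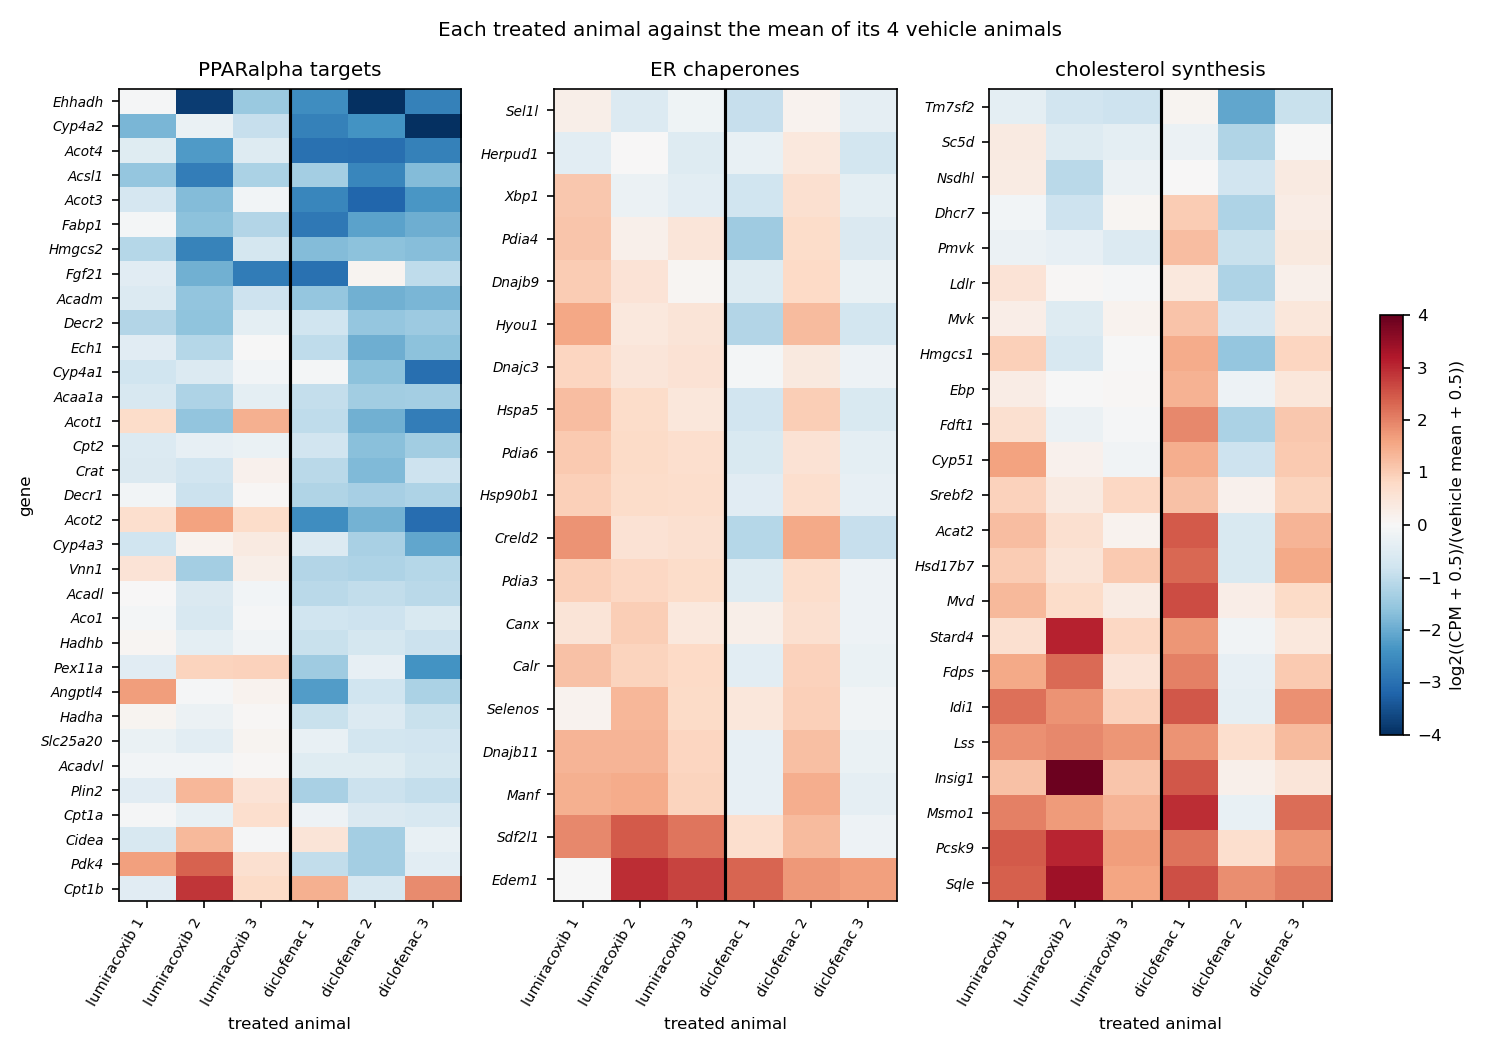
Log2 ratio of each treated animal to the mean of its 4 vehicle animals, after adding 0.5 CPM, for genes (rows) of lipid and chaperone lists in lumiracoxib and diclofenac animals 1 to 3 (columns). Red is higher and blue lower than vehicle. Most PPARalpha targets are blue in all 3 diclofenac animals, while chaperone and cholesterol genes differ between diclofenac animal 2 and animals 1 and 3.

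Bile acid genes fell more than they rose: 7 of 14 were lower and 1 higher after lumiracoxib, and 5 lower and 2 higher after diclofenac. Over all genes 8.61% fell and 10.5% rose after lumiracoxib, and 12.7% fell and 15.6% rose after diclofenac. The counts of higher genes did not exceed those shares. Nr0b2, the repressor SHP that bile acids induce through Nr1h4, had 148, 58.7, 39.0 and 28.1 CPM in the vehicle animals and 6.81, 11.8 and 5.10 CPM after lumiracoxib (−3.11 ± 0.64, adjusted p = 0.0157). Nr0b2 in the diclofenac study had 83.0, 19.3, 48.4 and 54.5 CPM in the vehicle animals and 6.43, 2.71 and 11.5 CPM after treatment (−2.90 ± 0.61, adjusted p = 0.0109). The bile acid uptake transporter Slc10a1 was called after lumiracoxib (−2.096 ± 0.36, adjusted p = 0.00838) and missed the threshold after diclofenac (−1.21 ± 0.52, adjusted p = 0.120). Cyp7a1, which starts the making of bile acids from cholesterol, had 53.7, 58.3, 27.0 and 12.3 CPM in the vehicle animals and 367, 30.1 and 240.4 CPM after diclofenac (2.49 ± 0.79, adjusted p = 0.0498). Animals 1 and 3 were high and animal 2 stood among the vehicle animals: without animals 1 and 3 the log2 fold change was −0.33. After lumiracoxib Cyp7a1 had 23.3, 6.25 and 57.7 CPM from 61.3, 33.5, 41.7 and 14.3 (−0.37 ± 0.70, adjusted p = 0.726). The count of higher bile acid genes after diclofenac was 1 or 0 in each refit that left out a vehicle animal or treated animal 1 or 3, and that of lower genes was 3 without vehicle animal 2, 3 or 4. Every lumiracoxib call of the list was lost with RIN as a covariate, where edgeR called 0 of 14 (1 higher and 7 lower at an unadjusted p under 0.05), while DESeq2 without it called 1 higher and 10 lower. Calls were lost in some refits without 1 animal after diclofenac for Cyp7a1 (6 of 7, adjusted p up to 0.148).

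In iron and metal handling, 10 of 23 genes rose after each drug, where 10.5% and 15.6% of all genes rose, and 3 and 5 fell. The zinc and iron importer Slc39a14 rose by 2.55 ± 0.51 and 1.33 ± 0.33 and the divalent metal transporter Slc11a2 by 1.98 ± 0.29 and 1.89 ± 0.35. Metallothionein Mt2A, which may share reads with Mt1, rose by 2.30 ± 0.44 and 1.63 ± 0.31. Hfe, which acts upstream of hepcidin, was lower after both (−1.27 ± 0.31 and −1.29 ± 0.33). The lumiracoxib count of lower genes was 0 without vehicle animal 1, 2 or 4 and 1 without vehicle animal 3 or treated animal 3. Under RIN as a covariate 3 of the 23 rose and 0 fell after lumiracoxib by edgeR (9 and 4 at an unadjusted p under 0.05), and DESeq2 without it called 12 higher and 5 lower. Of 23 complement genes, 13 rose and 2 fell after lumiracoxib (median 1.07), and 8 rose and 3 fell after diclofenac (median 0.52). C4bpa, a complement inhibitor (1.95 ± 0.21 and 1.34 ± 0.24), and Serping1, the inhibitor of the first complement component (1.17 ± 0.18 and 1.32 ± 0.20), rose after both. C9, of the membrane attack complex, was called after lumiracoxib (2.43 ± 0.34, adjusted p = 0.00391) and not after diclofenac (1.101 ± 0.38, adjusted p = 0.0660). Complement genes lower after lumiracoxib numbered 1 without any of vehicle animals 1 to 4 or treated animal 3, and the diclofenac count of higher genes was 13 without treated animal 1. Complement genes called higher after lumiracoxib numbered 1 with RIN as a covariate. Of 24 coagulation genes, 7 rose and 3 fell after lumiracoxib, and 10 rose and 4 fell after diclofenac. With 1 animal left out, the count of lower coagulation genes ranged from 0 to 4 after lumiracoxib and from 2 to 4 after diclofenac. The coagulation calls after lumiracoxib were 4 higher and 0 lower by edgeR with RIN as a covariate (5 and 3 at an unadjusted p under 0.05), and 8 and 3 by DESeq2 without it. With 1 animal left out at a time, calls were lost in some refits after lumiracoxib for Hfe (5 of 7, adjusted p up to 0.0765) and after diclofenac for Hfe (3 of 7, adjusted p up to 0.0713) and Slc39a14 (1 of 7, adjusted p up to 0.0548).

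The remaining lists are read against the 10.5% of all genes higher and 8.61% lower after lumiracoxib and the 15.6% and 12.7% after diclofenac. Glucocorticoid-responsive genes had 6 higher and 0 lower of 19 after lumiracoxib (median 0.77) and 8 higher and 2 lower after diclofenac (median 0.57), and Igfbp1, a binding protein for insulin-like growth factors, rose by 3.04 ± 0.60 and 2.73 ± 0.44. The higher glucocorticoid-responsive genes numbered 1 after lumiracoxib and 5 after diclofenac with RIN as a covariate, and 8 after each by DESeq2. Fatty acid synthesis had 1 gene higher and 3 lower of 14 after each drug, with medians of −1.10 and −0.56. By DESeq2 fatty acid synthesis had 1 gene higher and 7 lower after lumiracoxib, and 3 higher and 4 lower after diclofenac. ATF4 targets had 0 higher and 1 lower of 23 after lumiracoxib, and 6 higher and 1 lower of 23 after diclofenac. Growth hormone and IGF axis genes had 2 higher and 1 lower of 15 after lumiracoxib, and 2 higher and 4 lower after diclofenac. Proliferation genes had 5 higher and 1 lower after each drug, of 27 and 28 tested. The DNA replication helicase gene Mcm5 rose by 1.13 ± 0.32 and 1.38 ± 0.39, while cyclin D1, Ccnd1, fell by 2.18 and 1.76. Of 14 p53 targets, 1 was higher after lumiracoxib and 2 after diclofenac and 1 lower after each, with the growth-restraining gene Btg2 higher after both (3.64 ± 0.72 and 3.74 ± 0.60). Urea cycle and amino acid genes had 1 higher and 5 lower of 27 after lumiracoxib, and 2 higher and 4 lower after diclofenac. Of the clock genes edgeR called 0 of 14 after lumiracoxib (0 higher and 3 lower at an unadjusted p under 0.05, and 0 and 2 called by DESeq2) and 1 higher of 15 after diclofenac. Interferon-stimulated genes had 0 higher, with 3 and 4 lower of 17. Of 18 hepatocyte genes, 1 was higher after lumiracoxib and 2 after diclofenac, and 5 were lower after each. DESeq2 called 3 growth hormone and IGF axis genes lower, 6 interferon-stimulated genes lower and 3 hepatocyte genes higher after lumiracoxib, and 8 proliferation genes higher after diclofenac. RIN as a covariate left edgeR with 0 lumiracoxib calls in the lists of fatty acid synthesis (1 higher and 4 lower at an unadjusted p under 0.05), ATF4 targets (3 and 1), the growth hormone and IGF axis (2 and 3) and proliferation (4 and 0). The same held for p53 targets (2 and 1), urea cycle and amino acid genes (2 and 5), clock genes (0 and 2) and interferon-stimulated genes (0 and 3), while 1 hepatocyte gene was lower. These small counts moved by more than 1.5 times in many refits that left out 1 animal. Without lumiracoxib animal 1 the interferon list had 10 genes lower and the urea cycle list 8 higher, and proliferation genes called higher after diclofenac ranged from 0 without vehicle animal 3 or treated animal 2 to 8 without treated animal 1. Refits that left out 1 animal lost calls after lumiracoxib for Ccnd1 (2 of 7, adjusted p up to 0.0959) and Mcm5 (6 of 7, adjusted p up to 0.0938) and after diclofenac for Ccnd1 (4 of 7, adjusted p up to 0.0934) and Mcm5 (6 of 7, adjusted p up to 0.102).

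**Figure D5:**
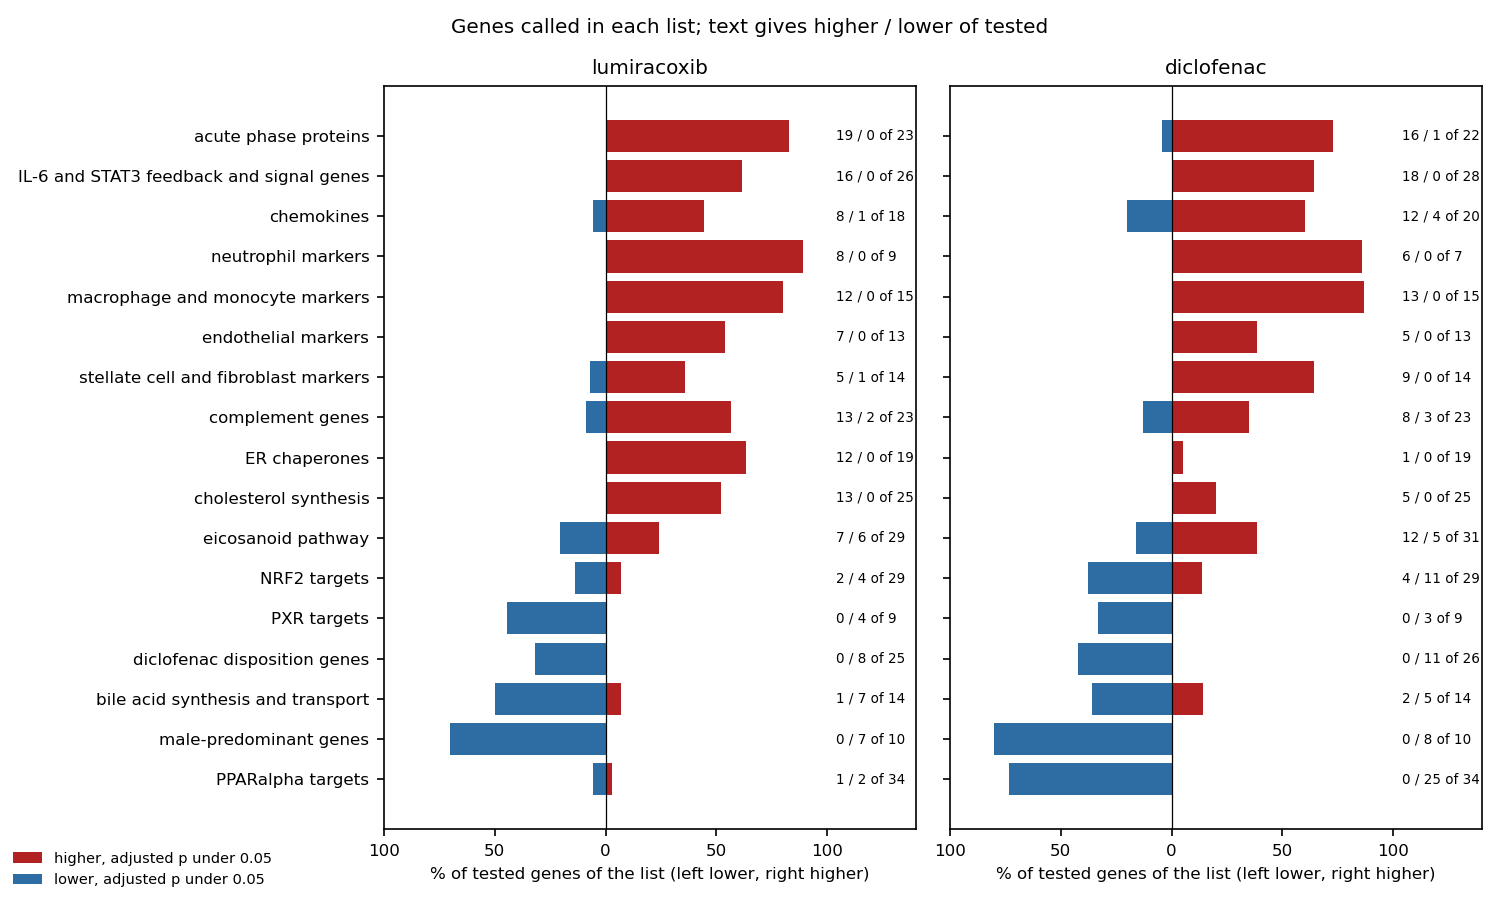
Share of the tested genes of each list that passed an adjusted p of 0.05 after lumiracoxib (left panel) and diclofenac (right panel), with bars to the right for higher and to the left for lower genes. The numbers beside the bars are genes higher and lower of those tested: acute phase genes stand at 19 and 0 of 23 after lumiracoxib, and PPARalpha targets at 0 and 25 of 34 after diclofenac.

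Outside the lists, the increases that were largest after both drugs included genes at or near 0 in untreated liver. Here and in the next paragraph, the treated animals alone could bring such genes past the filter on low counts. Gucy2c, the guanylate cyclase receptor known from intestinal epithelium, had 0, 0.174, 0.108 and 0.105 CPM in the vehicle animals and 13.1, 125 and 15.4 CPM after lumiracoxib (8.95 ± 1.18, adjusted p = 0.00357). Gucy2c in the diclofenac study had 0.127, 0.0436, 0.0466 and 0.0446 CPM in the vehicle animals and 8.81, 38.7 and 21.4 CPM after treatment (8.32 ± 0.67, adjusted p = 2.45e-04). Ptx3, a pentraxin of innate immunity, rose by 8.12 ± 0.73 and 7.62 ± 0.75, and Fst, which binds activins, by 7.11 ± 0.81 and 6.34 ± 0.98. Serpinb2, an inhibitor of plasminogen activators in macrophages, had 2.23, 8.33 and 5.24 CPM in lumiracoxib and 7.57, 24.9 and 12.3 CPM in diclofenac animals 1 to 3, with at most 0.0581 CPM in a vehicle animal. Fgf23, the phosphate-regulating hormone known from bone, had no count in any vehicle animal. It had 2.12, 11.7 and 1.56 CPM in lumiracoxib animals 1 to 3 (at least 123-fold higher, adjusted p = 0.0217) and 0.128, 15.3 and 0.426 CPM in diclofenac animals 1 to 3, where it was not tested. Animal 2 was by far the highest in each study.

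Nos2 and Acod1, known from activated macrophages, rose after both drugs. Nos2, the inducible nitric oxide synthase, had 84.9, 3.62 and 18.6 CPM in diclofenac animals 1 to 3 (9.48 ± 1.37, adjusted p = 0.00235) and 1.58, 9.51 and 1.15 CPM in lumiracoxib animals (7.63 ± 1.24, adjusted p = 0.00698), with at most 0.0872 CPM in a vehicle animal. Acod1, which makes itaconate, had 0, 0.131, 0.140 and 0.0891 CPM in the vehicle animals and 82.3, 22.9 and 67.5 CPM after diclofenac (9.25 ± 0.66, adjusted p = 1.76e-04). Acod1 in the lumiracoxib study had 0.116, 0.116, 0.0538 and 0.0523 CPM in the vehicle animals and 4.90, 9.01 and 5.10 CPM after treatment (6.14 ± 0.41, adjusted p = 2.59e-04). Diclofenac animals 1 and 3 had more Acod1 and Nos2 than animal 2. The carbonic anhydrase gene Car4 had no vehicle count, 15.4, 15.3 and 8.38 CPM in diclofenac animals 1 to 3 (at least 393-fold higher) and 1.63, 4.39 and 5.33 CPM in lumiracoxib animals (at least 91.1-fold higher). Nrap, a muscle gene, had 62.1, 0.817 and 63.1 CPM in diclofenac animals 1 to 3, in step with the muscle transcripts described above.

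Many of the largest decreases were seen after both drugs. Inmt, a methyltransferase of small amines, had 57.1, 52.97, 71.2 and 20.3 CPM in the vehicle animals and 0.544, 1.69 and 2.39 CPM after lumiracoxib (−5.01 ± 0.61, adjusted p = 0.00263). Inmt in the diclofenac study had 35.8, 11.7, 19.2 and 18.7 CPM in the vehicle animals and 0.638, 0.0511 and 0.474 CPM after treatment (−5.72 ± 0.63, adjusted p = 8.65e-04). Serpina3c, a serine protease inhibitor of rat liver, fell from means of 4809.5 to 419 CPM (−3.52 ± 0.39, adjusted p = 0.00170) and of 5644 to 83.1 CPM (−6.09 ± 0.93, adjusted p = 0.00296). Nox4, an NADPH oxidase (−4.01 ± 0.70 and −5.12 ± 1.02), the sulfotransferase Sult1c2 (−3.90 ± 1.04 and −6.33 ± 0.52), Mmd2 (−5.23 ± 0.30 and −4.88 ± 0.70) and the calcium-binding protein Cib2 (−4.85 ± 1.00 and −4.82 ± 0.67) fell after both. Among the largest decreases of a single drug, Xpnpep2, a membrane aminopeptidase, was called after lumiracoxib (−4.14 ± 0.63, adjusted p = 0.00550) and not after diclofenac (−1.25 ± 0.66, adjusted p = 0.195). Dhrs7l1 (−2.50 ± 0.81 and −6.35 ± 0.88), the carbonic anhydrase Car3 (−3.55 ± 1.17 and −6.01 ± 1.20) and the steroid dehydrogenase Hsd17b2 (−4.19 ± 1.36 and −6.01 ± 1.20) were called after diclofenac and had adjusted p of 0.0659, 0.0686 and 0.0656 after lumiracoxib. With 1 animal left out at a time, calls were lost in some refits after lumiracoxib for Cib2 (1 of 7, adjusted p up to 0.0715) and Sult1c2 (4 of 7, adjusted p up to 0.129).

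Some genes called after lumiracoxib had, after diclofenac, an unadjusted p above 0.05 and a 95% interval inside −1 to 1. Increases among them were led by Etnk1, ethanolamine kinase (74.0, 560.4 and 129 CPM in animals 1 to 3 from 54.8, 50.4, 53.04 and 60.6 in the vehicle animals, 2.22 ± 0.61, adjusted p = 0.0399), Lurap1l, Fam114a1, NEWGENE_1559832 (1.40 ± 0.41 and 0.23 ± 0.31), the ornithine decarboxylase Odc1 (1.16 ± 0.33 and −0.09 ± 0.22) and Crp. Decreases were led by Slc37a4, the glucose phosphate transporter (−1.96 ± 0.36 and −0.15 ± 0.33), with Ranbp17, the deubiquitinase Usp2, the apolipoprotein Apoc1, the tyrosine-breakdown enzyme Hgd and the chaperone Hspa8 (−1.43 ± 0.28 and −0.24 ± 0.28). Slc37a4 had 272, 324, 323 and 229 CPM in the vehicle animals and 56.4, 44.1 and 121 CPM after lumiracoxib. Slc37a4 in the diclofenac study had 294, 241, 267 and 257 CPM in the vehicle animals and 335, 113 and 269.8 CPM after treatment. Diclofenac animal 2 alone was below its vehicle animals. Refits that left out 1 animal lost calls after lumiracoxib for Etnk1 (4 of 7, adjusted p up to 0.0959), Lurap1l (5 of 7, adjusted p up to 0.0726), NEWGENE_1559832 (5 of 7, adjusted p up to 0.119), Odc1 (6 of 7, adjusted p up to 0.101), Apoc1 (2 of 7, adjusted p up to 0.0513) and Hgd (5 of 7, adjusted p up to 0.0684).

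Other genes called after diclofenac had, after lumiracoxib, an unadjusted p above 0.05 and an interval inside −1 to 1. They included the muscle genes Tnnt1 and Tmem38a, with Ahnak and Mef2c, all of them high mainly in animals 1 and 3: Ahnak had 95.3, 19.6 and 118 CPM from 11.4, 13.7, 11.6 and 9.09. Col1a1 and Aebp1, a matrix-associated protein, were high in all 3 animals. Aebp1 had 30.9, 37.8 and 38.8 CPM from 8.33, 9.11, 8.62 and 7.44 (2.096 ± 0.13, adjusted p = 9.83e-05). Decreases were Eci1 (−0.33 ± 0.27 and −2.09 ± 0.35) and Acat1 (−0.37 ± 0.27 and −1.65 ± 0.20), both mitochondrial enzymes of fatty acid and ketone metabolism, with Angptl6, the inositol phosphatase Impa2, the adhesion molecule Cadm1 and Tmem125. Acat1 had 285, 448, 428 and 329 CPM in the vehicle animals and 116, 129 and 110.0 CPM after diclofenac (−1.65 ± 0.20, adjusted p = 0.00112). Acat1 in the lumiracoxib study had 325, 347, 370.0 and 295 CPM in the vehicle animals and 353, 156 and 267 CPM after treatment (−0.37 ± 0.27, adjusted p = 0.342). All 3 diclofenac animals lay below all vehicle animals. Leaving out 1 animal at a time ended calls in some refits after diclofenac for Mef2c (3 of 7, adjusted p up to 0.0544) and Tmem38a (5 of 7, adjusted p up to 0.119).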

How the data were processed

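Polyadenylated RNA of rat liver was sequenced from libraries made with a stranded kit, per the labels' protocols. The authors deposited expected counts per Ensembl gene, and the submitters' processing notes name build Rnor 6.0. The aligner and the counting program are not given in the sources used here. Of the nonzero expected counts in the deposited table, 87.5% were whole, and all were rounded. The deposited table has 32893 gene rows and 743 columns, of which 620, belonging to other samples, were not used. Libraries of 1 animal were summed. Each drug was fitted with its own study (3 treated against 4 vehicle animals) in edgeR 4.0.16 (R 4.3.3) with filterByExpr, TMM scaling and the robust quasi-likelihood test. P-values were adjusted by Benjamini-Hochberg over all genes tested, with a threshold of 0.05, and each fold change carries an SE, the fold change divided by the square root of its F statistic. A gene at 0 counts lies below about 3 counts per library or, where stated, per group, which covers counting error only. CPM values are scaled by TMM, except the sums set beside the 105 other vehicle animals, which use library totals. The test was checked on simulated data. Of genes changed by 1 on the log2 scale it recovered 25.5% in the lumiracoxib setting and 37.1% in the diclofenac setting. Of those changed by 2 it recovered 87.5% in each, with 4 and 5 false calls. A gene that missed the threshold can thus still have changed. Far fewer genes were changed in the simulation than were called in the data.

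The members and the 36 gene lists (634 genes, 601 matched) were chosen with earlier results of these data known, and the muscle, mesothelial and pancreatic lists after the data were seen. The pancreatic markers summed to 0.213 to 5.87 CPM. A gene was named where it had a mean of at least 5 CPM in the higher group and ranked among the largest changes of a drug, of both drugs in the same or in opposite directions, or of 1 drug with the other's 95% interval inside −1 to 1. The largest changes of a drug, or of both in the same direction, also needed every treated animal on 1 side of all vehicle animals. Members of lists were named as those called with the highest CPM, and the called members of the eicosanoid list in full. The fibrinogen promoters were chosen after the values were seen. A2m has no entry in the promoter table used. Some genes that met these rules are not reported here, though list counts include them. Where a symbol has several rows, the row with the most counts was used. Alternatives were other size factors, DESeq2 1.42.0, no filter, the deposited RefSeq gene counts, a minimum fold change, 1 fit of all groups, RIN as a covariate and leaving out each animal. The shared flow cell and the fit without diclofenac animals 1 and 3 were added after seeing the data.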

Additional observations from a re-analysis of the deposited data

Results flagged for a closer look

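Among the genes given per animal, 92 sets of 4 vehicle animals were examined on the log2(CPM + 0.1) scale, and in 11 of them the highest or lowest animal lay farther from the others than Dixon's 95% critical value for 4 samples allows. Chance gives about 1 in 20 such sets where values are continuous, but that rate does not hold for sets of a few counts. Cxcl2, Nos2, Il6 and, in the diclofenac study, Serpinb2 had 1 count in 1 animal and 0 in the other 3, which meets the limit by construction, so the 11 are not read against that rate. A2m stood at 37.9 CPM in vehicle animal 1 of the lumiracoxib study, the highest, with the other 3 at 10.6 to 13.1 CPM. In vehicle animal 4 of the diclofenac study Acot2 had 106 CPM, the highest, with the other 3 at 69.5 to 74.2 CPM. Cxcl2 stood at 0.0436 CPM in vehicle animal 2 of the diclofenac study, the highest, with the other 3 at 0 CPM. In vehicle animal 3 of the lumiracoxib study Cyp1a1 had 2.15 CPM, the highest, with the other 3 at 0.520 to 0.628 CPM. Gucy2c stood at 0.127 CPM in vehicle animal 1 of the diclofenac study, the highest, with the other 3 at 0.0436 to 0.0466 CPM. In vehicle animal 4 of the lumiracoxib study Il6 had 0.0523 CPM, the highest, with the other 3 at 0 CPM. Lyz2 stood at 12.8 CPM in vehicle animal 1 of the lumiracoxib study, the lowest, with the other 3 at 24.5 to 27.9 CPM. In vehicle animal 4 of the lumiracoxib study Nos2 had 0.0523 CPM, the highest, with the other 3 at 0 CPM. Ptger3 stood at 18.0 CPM in vehicle animal 3 of the diclofenac study, the lowest, with the other 3 at 31.7 to 34.6 CPM. In vehicle animal 3 of the lumiracoxib study Serpinb2 had 0 CPM, the lowest, with the other 3 at 0.0523 to 0.0581 CPM. Serpinb2 stood at 0.0446 CPM in vehicle animal 4 of the diclofenac study, the highest, with the other 3 at 0 CPM. Values under 0.1 CPM rest on 1 to 3 counts. Except for Il6, which was too low to be tested, fitted fold changes of these genes with each vehicle animal left out are among those counted in the part on processing.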

How the results depend on the processing

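Genes called after lumiracoxib numbered 2465, and 302 with a minimum absolute log2 fold change of 1, 3700 in 1 fit of all 4 groups, 149 with RIN as a covariate, 1199 in the libraries of the shared flow cell, 1238 to 3248 with 1 animal left out and 3510 with DESeq2. Diclofenac called 3720 genes, and 825 with the minimum fold change, 2444 without animals 1 and 3, and 2606 to 3836 with 1 animal left out. Genes called after both in the same direction numbered 1540, and 194 with the minimum fold change, 111 with RIN as a covariate, 804 with the shared flow cell and 903 to 1831 with 1 animal left out. The counts with other size factors, DESeq2, no filter and the RefSeq genes were within 1.5 times. RIN and treatment are related in the lumiracoxib study (8.5 to 8.7 against 7.5 to 8.5). Their parts in the lumiracoxib calls therefore cannot be told apart. A fold change of at least 1 asks for more than the main test does, and for the other settings the cause was not tested. Of 4611 values of named genes under the alternatives, 4047 kept direction and call, 518 lost the call, 45 gained it and 1 reversed: Cyp7a1 after diclofenac, at 2.49 with all animals and −0.33 without animals 1 and 3. With RIN as a covariate 101 values lost their call, with the minimum fold change 112, with the shared flow cell 36 and without diclofenac animals 1 and 3 22. No paired analysis was possible because the replicate numbers were given in accession order and the labels pair no animals. With 3 treated animals a group, single high or low animals weigh heavily. Genes with no count in the vehicle animals have fold changes set largely by the prior count. Fold changes of other genes near 0 CPM there rest on few vehicle counts.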
